A study of Mus musculus with 7 samples.

Results

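The genes described here are 9 RNA-binding regulators of cytokine mRNA decay in mouse bone-marrow-derived macrophages (BMDMs): Zfp36, Zfp36l1, Zfp36l2, Zc3h12a, Zc3h12c, Rc3h1, Elavl1, Hnrnpd and Khsrp. They were chosen by symbol, and all 9 were found in both expression tables, among 48440 genes in the LPS table and 55352 in the AAV table. BMDMs were grown from the bone marrow of wild-type C57BL/6 mice in 20 ng/mL M-CSF, the growth factor that drives macrophage differentiation. In the LPS experiment, RNA was sequenced from BMDMs without treatment (0 h) and from BMDMs given 100 ng/mL LPS, a cell wall component of Gram-negative bacteria, for 2 h or 4 h, with 1 library at each time. In the AAV experiment, BMDMs were transduced for 48 h with adeno-associated virus carrying GFP (AAV-GFP) or Shisa3 (AAV-Shisa3), with 2 samples per group. Per the study's methods, both vectors used the AAV1 capsid and the CAG promoter, which is not specific to any cell type, so both AAV groups had been exposed to virus. The labels do not say whether the samples of a group came from separate mice or cultures, so p-values measure only the spread between these samples.

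Many inflammatory mRNAs are short-lived because their 3′ UTRs hold AU-rich elements or small stem-loops that proteins recognise. Zfp36 (tristetraprolin) and its relatives Zfp36l1 and Zfp36l2 are CCCH zinc-finger proteins that bind the AU-rich heptamer UAUUUAU and recruit the CCR4-NOT deadenylase, and phosphorylation through p38 and MK2 (Mapkapk2) restrains Zfp36 while also keeping the protein from being degraded. Zc3h12a (Regnase-1) is an endonuclease that cleaves mRNAs at stem-loops with a pyrimidine-purine-pyrimidine loop, Zc3h12c (Regnase-3) is its close relative, and Rc3h1 (Roquin-1) binds similar stem-loops. Elavl1 (HuR) binds AU-rich mRNAs and generally protects them, while Hnrnpd (AUF1) and Khsrp (KSRP) bind them and mostly promote decay. The values below are RNA levels, which do not separate synthesis from decay.

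The sequences on which these proteins act are shown first, because several members carry in their own 3′ UTR the elements that they bind in cytokine mRNAs. They were read from the main GENCODE M21 transcript of each gene (GRCm38, 5′ to 3′ on the RNA strand, with T for U). The first set shows the richest AU window of at most 30 bases, with the heptamer TATTTAT in capitals, in the 3 Zfp36 family members, in the opposing factor Elavl1 and in the target mRNAs Tnf, Il1b and Cxcl2.
Zfp36, chr7:28376959-28376988, minus strand: cccttTATTTATgacgacttTATTTATtgt
Zfp36l1, chr12:80108167-80108196, minus strand: aaactgttggatTATTTATtttagaaattc
Zfp36l2, chr17:84184914-84184943, minus strand: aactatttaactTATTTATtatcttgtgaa
Elavl1, chr8:4285777-4285806, minus strand: tTATTTATTTATTTATTTATtttTATTTAT
Tnf, chr17:35199677-35199706, minus strand: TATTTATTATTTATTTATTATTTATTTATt
Il1b, chr2:129364803-129364832, minus strand: acttaccTATTTATTTATgTATTTATtgat
Cxcl2, chr5:90905325-90905354, plus strand: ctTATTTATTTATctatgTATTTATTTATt

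On GRCm38, Zfp36 (ENSMUSG00000044786.6) lies on chromosome 7 from 28376784 to 28380253 on the minus strand in 2 exons, and Zc3h12a (ENSMUSG00000042677.7) on chromosome 4 from 125118423 to 125127840 on the minus strand in 6 exons. All windows shown are in 3′ UTRs. Heptamers, overlapping ones included, numbered 3 in the 774-base 3′ UTR of Zfp36, 3 in that of Zfp36l1 (1835 bases), 3 in that of Zfp36l2 (1822 bases) and 8 in that of Elavl1 (4218 bases). Tnf had 8 in 764 bases, Cxcl2 had 7 and Il1b 3. The target mRNAs listed differed widely in this count. Csf2 had the most, 9, while Il6, Il12b, Ccl3 and Ptx3 had 1 each and Ccl2, Nfkbiz, Lcn2 and Plaur had 0. At least 1 heptamer was present in 26.0% of all 20795 3′ UTRs, and in 20.1% of those whose length was 80 to 125% of that of Zfp36, of which 1.24% held as many as Zfp36. For Elavl1, 0.300% of 3′ UTRs of like length held as many. For Zfp36l1 and Zfp36l2 these shares were 4.17% and 4.13%. Zc3h12c and Rc3h1 each had 2 heptamers, a number that 30.6% and 50.0% of 3′ UTRs of like length reached, and Zc3h12a, Hnrnpd and Khsrp had none.

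The second set shows hairpins with a perfectly paired stem of 6 bases and a pyrimidine-purine-pyrimidine loop, in capitals, in Zc3h12a itself and in 2 of the target mRNAs, Tnf and Nfkbiz. Such a match is a pattern of letters and was not tested for folding or binding.
Zc3h12a, chr4:125119069-125119083, minus strand: gatacaCATtgtatc
Zc3h12a, chr4:125118887-125118901, minus strand: aggcacCATgtgcct
Zc3h12a, chr4:125118663-125118677, minus strand: tttaaaTATtttaaa
Tnf, chr17:35199585-35199599, minus strand: gttttcTGTgaaaac
Nfkbiz, chr16:55812614-55812628, minus strand: tgtttcTATgaaaca

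Zc3h12a held 3 such hairpins in a 3′ UTR of 856 bases, where 5.65% of 3′ UTRs of like length held at least 1 and 7.70% of all 3′ UTRs did. Rc3h1 held 4 in 7181 bases, a pair of them overlapping, and Zc3h12c held 1 in 4062 bases, for which 36.1% and 21.2% of 3′ UTRs of like length held at least 1. The Zfp36 family members, Elavl1, Hnrnpd and Khsrp had none. Of the 17 target mRNAs listed, Tnf and Nfkbiz held 2 each, with 1 of each shown, and Plaur held 1. The other targets listed, Il6 included, held none.

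Depth in the LPS libraries was 15588502 (0 h), 7263258 (2 h) and 32659392 (4 h) reads, the shallowest being that of 2 h. The depth of the AAV samples is unknown. The cells carried their expected lineage genes: all macrophage markers matched in each table (7 of 8 in the LPS table, 8 of 8 in the AAV table) were above 0 in every sample, and Lyz2, a macrophage lysozyme, had LPS values of 209164 to 242489. Of the T cell markers, Cd3e was at 0 in all samples, Cd3d had at most 1 read and Cd8a at most 12 in any LPS library, while Cd4 had 197, 113 and 170 reads at 0, 2 and 4 h and 5.76 to 10.4 TPM in the AAV samples. The 6 fibroblast markers summed to 461, 718 and 544 at 0, 2 and 4 h and to 9.42 to 16.4 TPM in the AAV samples. Summed neutrophil markers were 4717, 9910 and 7040 at 0, 2 and 4 h, with 5 of the 8 higher at 2 h than at 0 h and 4 higher at 4 h. Among them, S100a9 was at 1538, 3522 and 2728, and Camp at 206, 742 and 412. S100a8 was at 963, 834 and 1561, Elane at 45.7, 39.3 and 17.9, and Ly6g had 4, 1 and 2 reads. Whether these cells had any part in the LPS differences was not tested, and in bulk RNA fewer cells of a type and less RNA per cell cannot be told apart.

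Zfp36, Zc3h12a and Zc3h12c were between 8.19-fold and 21.05-fold higher in the libraries with LPS, while Zfp36l2 and Zfp36l1 were lower. LPS values are reads divided by 1 factor per library (normalised read count). With 1 library per time there is no replicate check and no test, and a change was counted at 2-fold on log2(value + 1). At 2 h, 3 of the 9 members were at least 2-fold higher (Zfp36, Zc3h12a and Zc3h12c), against 20.5% of the 17854 genes kept, and 2 were at least 2-fold lower (Zfp36l1 and Zfp36l2), against 24.7%. At 4 h, 4 were higher (the same 3 and Elavl1), against 22.2%, and the same 2 were lower, against 23.6%. The median log2 ratio of the members was 0.43 at 2 h and 0.62 at 4 h, beside −0.05 and −0.04 for all genes kept.

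Zfp36 had a normalised read count of 713 at 0 h (1108 reads), 13539 at 2 h (6200 reads) and 12971 at 4 h (23869 reads). It was 19.0-fold higher at 2 h than at 0 h (95% interval 17.8 to 20.3) and 18.2-fold higher at 4 h (17.1 to 19.3). These intervals are exact binomial intervals on the reads and cover counting error only. The values at 2 h and 4 h were close, with a log2 ratio of −0.06 between them.

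Zfp36l2 went the other way, with normalised read counts of 3701, 168 and 107 at 0, 2 and 4 h (5753, 77 and 197 reads). Its level was 22.0-fold lower at 2 h (17.6 to 27.9) and 34.6-fold lower at 4 h (29.99 to 40.0). Zfp36l1 was lower more slowly, at 929, 435 and 124 (1444, 199 and 229 reads), which is 2.14-fold lower at 2 h (1.84 to 2.49) and 7.46-fold lower at 4 h (6.49 to 8.62). Between 2 h and 4 h its log2 ratio was −1.80, the only member at least 2-fold lower in that interval, where 15.2% of genes kept were.

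Per length, the family was mostly Zfp36l2 in the 0 h library and almost wholly Zfp36 in the libraries with LPS. The AAV-GFP samples, which the labels also do not describe as given LPS, differed from the 0 h library, with Zfp36 at 79.2% and 76.9%. As a share of the summed normalised reads per kb of the 3 genes, Zfp36 made up 15.8% at 0 h, 96.2% at 2 h and 98.5% at 4 h. Zfp36l2 made up 64.9%, 0.944% and 0.642%, and Zfp36l1 19.2%, 2.88% and 0.882%. The main M21 transcript of Zfp36 (2790 bases) has a long 5′ UTR. With lengths that leave out the 5′ UTR, an alternative chosen after seeing the data, the share of Zfp36 was 22.0% at 0 h, 97.5% at 2 h and 99.0% at 4 h.

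**Figure D1:**
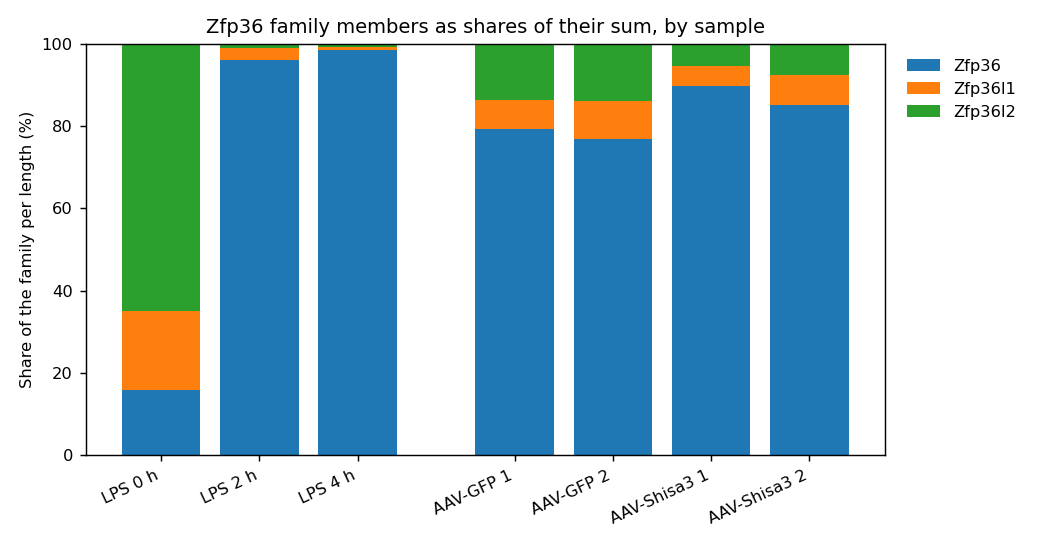
Shares of Zfp36, Zfp36l1 and Zfp36l2 in their summed level per length (percent, stacked bars from 0 to 100), in each of the 3 LPS libraries and the 4 AAV samples. Zfp36 goes from 15.8% at 0 h to 96.2% and 98.5% with LPS, and lies at 79.2% and 76.9% in AAV-GFP and at 89.8% and 85.2% in AAV-Shisa3.

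The endonuclease Zc3h12a had normalised read counts of 276, 2260 and 2363 at 0, 2 and 4 h (429, 1035 and 4349 reads). It was 8.19-fold higher at 2 h (7.31 to 9.19) and 8.56-fold higher at 4 h (7.75 to 9.48). Zc3h12c went from 221 (344 reads) to 4658 (2133 reads) and 3306 (6084 reads), 21.05-fold higher at 2 h (18.8 to 23.7) and 14.9-fold higher at 4 h (13.4 to 16.7). Both genes were thus high at both LPS times, Zc3h12c with its top value at 2 h. Zc3h12c started lower per kb and had the larger fold at both LPS times. Its share of the summed level per kb of the pair was 24.6% at 0 h, 45.6% at 2 h and 36.3% at 4 h.

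Rc3h1 stayed under 2-fold, with normalised read counts of 1355, 1710 and 2076 (2107, 783 and 3821 reads) and log2 ratios of 0.33 and 0.62. Elavl1 had 531, 716 and 1150 (825, 328 and 2116 reads), 2.17-fold higher at 4 h (2.00 to 2.35) after a log2 ratio of 0.43 at 2 h. Hnrnpd had 344, 210 and 521 (534, 96 and 958 reads), with log2 ratios of −0.71 at 2 h and 0.60 at 4 h. It was the only member at least 2-fold higher at 4 h than at 2 h (log2 ratio 1.31), where 17.9% of genes kept were. Khsrp had 839, 1208 and 988 (1305, 553 and 1818 reads), with log2 ratios of 0.52 and 0.23. The depth of the 2 h library (96 reads of Hnrnpd) makes the values there the least precise.

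**Figure D2:**
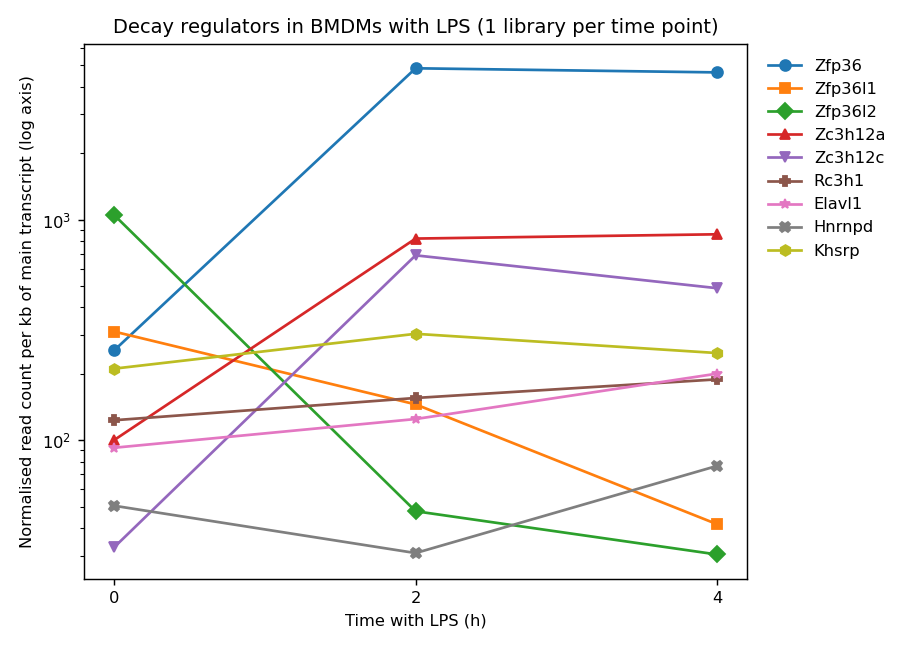
Normalised read count per kb of main transcript (log axis) of the 9 genes against hours with LPS (0, 2 and 4 h; 1 library each, points joined by lines). Zfp36l2 is the highest at 0 h at 1048 and the lowest at 4 h at 30.3, while Zfp36 goes from 255 to 4853 and 4649.

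The order of the members per length changed with LPS. At 0 h the normalised reads per kb were 1048 for Zfp36l2, 311 for Zfp36l1, 255 for Zfp36, 211 for Khsrp, 123 for Rc3h1, 100.2 for Zc3h12a, 92.4 for Elavl1, 50.4 for Hnrnpd and 32.7 for Zc3h12c. At 4 h the order was Zfp36 (4649), Zc3h12a (858), Zc3h12c (489), Khsrp (248), Elavl1 (200.2), Rc3h1 (189), Hnrnpd (76.4), Zfp36l1 (41.6) and Zfp36l2 (30.3). The 3 genes higher at both LPS times held the top places at 2 h as well, at 4853, 820.4 and 689.

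How the libraries are scaled moved the ratios of all members, and turned the direction of the smaller ones. With reads scaled to library totals in place of the authors' factors, the median log2 ratio of all genes kept was −0.68 at 2 h and −0.81 at 4 h, and with each library centred on its median it was 0.26 and 0.33. Past 2-fold at 2 h were 3668 genes upward and 4406 downward, against 2438 and 7115 with library totals and 4808 and 3454 when centred. At 4 h these pairs were 3958 and 4207, 2334 and 7768, and 5285 and 3036, and between 2 h and 4 h they were 3197 and 2710 against 2451 and 3131 with library totals. Zfp36, Zfp36l2, Zc3h12a and Zc3h12c stayed past 2-fold in the same direction under all 4 scalings at both LPS times, with log2 ratios at 4 h of 3.36 to 4.56 for Zfp36, −5.92 to −4.73 for Zfp36l2, 2.27 to 3.47 for Zc3h12a and 3.07 to 4.27 for Zc3h12c. With library totals the folds at 2 h and 4 h came to 12.0 and 10.3 for Zfp36, 5.18 and 4.84 for Zc3h12a, and 13.3 and 8.44 for Zc3h12c. Zfp36l1 stayed lower throughout, at −0.78 at 2 h when centred. Hnrnpd stayed lower at 2 h, from −0.40 when centred to −1.37 with library totals, which put it past 2-fold. With library totals the sign turned for Rc3h1 (−0.33 and −0.21) and Khsrp (−0.14 and −0.59) at both LPS times, for Elavl1 at 2 h (−0.23) and for Hnrnpd at 4 h (−0.22), and Elavl1 at 4 h was at 0.29. No direction can be read for those 4 genes where the sign turned.

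**Figure D3:**
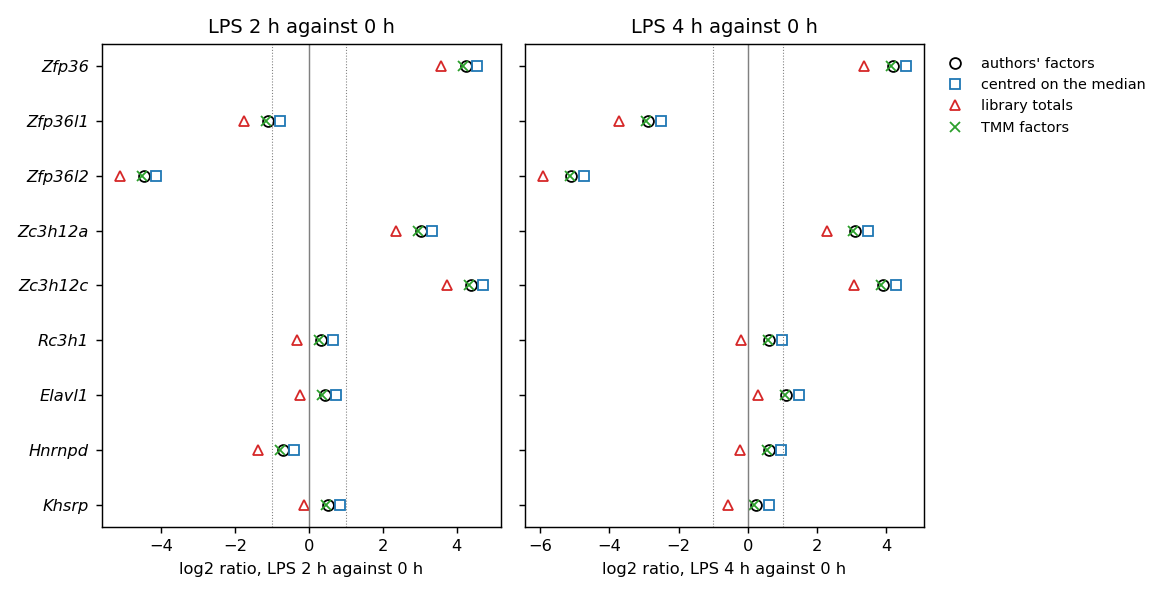
Log2 ratio against 0 h of the 9 genes at 2 h (left) and 4 h (right) under 4 scalings of the libraries (authors' factors, centred on the median, library totals and TMM factors); dotted lines mark 2-fold. Zfp36, Zc3h12a and Zc3h12c lie to the right and Zfp36l2 to the left of 2-fold under each scaling, while Rc3h1, Elavl1 at 2 h, Hnrnpd at 4 h and Khsrp lie on both sides of 0.

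Among 6236 genes with at least 100 reads in each LPS library, the 5 nearest to Zfp36 by Euclidean distance in log2 ratio at 2 h and 4 h were Nupr1, Mefv, Daxx, Tgm2 and Klf7, at distances of 0.10 to 0.22. Mefv encodes pyrin, an inflammasome sensor, and Tgm2 a transglutaminase. Nearest to Zc3h12a were Gm42641, Filip1l, Nfkb1, Usp12 and Whamm, at distances of 0.03 to 0.09, of which Nfkb1 (log2 ratios 3.10 and 3.05) encodes the p105 precursor of the NF-κB subunit p50. The likeness rests on 3 libraries that all genes share.

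The 250 bases before the RefSeq start sites (GRCm38.p6) were searched on both strands for 5 motifs of factors that act in activated macrophages. A start was listed for 8 members, and Zfp36l2 was not searched. The window of Zfp36, from 28379229 to 28379478, lies inside the M21 gene and overlaps the 5′ UTR of its main transcript. It held 1 EGR motif (GCGNGGGCG, in 4.70% of 32815 windows) and 1 GAS motif (TTCNNNGAA, in 7.01%). Those of Zfp36l1 and Rc3h1 each held 1 AP-1 motif (TGANTCA, in 6.75%). Those of Zc3h12a, Zc3h12c, Elavl1, Hnrnpd and Khsrp held none of these, and no member's window held the κB motif (in 4.65%) or the CRE motif TGACGTCA (in 1.55%), which says only that these letters are not in that window.

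The mRNAs listed here as targets of these proteins were higher with LPS wherever reads allowed a ratio. Of 17 listed target mRNAs, 15 had more than 3 reads at each of the times compared. All 15 exceeded 2-fold upward at both LPS times, with median log2 ratios of 5.74 and 6.30. Of all genes kept, 20.5% at 2 h and 22.2% at 4 h did so. The list was chosen with earlier results of these data known, so these counts are not an independent result. Il23a had 0, 2 and 2 reads and Csf2 had 0, 2 and 4, so no fold is given for either. By log2(value + 1), the top values at 2 h were those of Ptgs2, the inducible cyclooxygenase (log2 ratio 9.13), Il1b (9.03), Il12b (8.53) and Tnf (8.03). At 4 h they were Ptgs2 (10.68), Il1b (8.87), Il6 (8.09) and the pentraxin Ptx3 (7.93). This order depends on the added 1 for genes with few reads at 0 h: from 4 reads, Cxcl1 was 326-fold higher at 2 h (126 to 1202), against 264-fold for Tnf, and Ptx3 was 338-fold higher at 4 h, against 310.5-fold for Il6.

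Tnf, with its 8 heptamers, had normalised read counts of 137, 36109 and 19042, and Il1b had 52.7, 28065 and 25126. From 2 h to 4 h, Ptx3 (log2 ratio 2.42), Lcn2 (1.68) and Ptgs2 (1.56) were at least 2-fold higher, while Cxcl1 (−1.77) and Plaur (−1.68) were at least 2-fold lower. Target mRNAs did not share 1 course between 2 h and 4 h. Over that interval Zfp36 and Zc3h12a had nearly level values, and the other members had log2 ratios from −1.80 (Zfp36l1) to 1.31 (Hnrnpd). Whether the courses of members and targets are linked was not tested.

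Among genes that switch the decay proteins on or off, the phosphatase gene Dusp1 and the protease gene Malt1 had the largest ratios. Of 10 listed, 6 were at least 2-fold higher and 1 lower at 2 h, against 20.5% and 24.7% of all genes kept. At 4 h, 5 were higher and 2 lower, against 22.2% and 23.6%. The median log2 ratios were 1.18 at 2 h and 1.22 at 4 h. Dusp1, the phosphatase that turns off p38, had normalised read counts of 124, 7837 and 10562 (log2 ratios 5.97 and 6.40). Malt1, the protease that cleaves Regnase-1 and Roquin-1, had 445, 10078 and 15936 (4.50 and 5.16). Mapkapk2 was at 3.41 and 3.18, Map2k3 at 2.26 at 2 h, and Ywhaz, a 14-3-3 protein, at 1.83 at 4 h. The kinase gene Map2k6 was lower (−1.61 and −4.16, with 117, 11 and 6 reads), and Mapk14, which encodes p38α, was at −1.74 at 4 h. From 2 h to 4 h, Map2k6 (−2.55), Mapkapk3 (−1.93), Mapk14 (−1.54) and Map2k3 (−1.38) were at least 2-fold lower and Ywhaz (1.13) higher.

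Of 18 relatives and antagonists, 15 were kept, with 3 at least 2-fold higher and 3 lower at 2 h and 4 higher and 2 lower at 4 h. Over the 13 with more than 3 reads at the times compared, these counts were 2 and 2, and 3 and 1. Of all genes kept, 20.5% were higher and 24.7% lower at 2 h, and 22.2% and 23.6% at 4 h. Arid5a, which stabilises Il6 mRNA and counters Regnase-1, had normalised read counts of 364, 4706 and 3050 (log2 ratios 3.69 and 3.06). N4bp1, an endonuclease related to Regnase-1, had 671, 6162 and 7120 (3.20 and 3.41). Hnrnpab was at 1.28 at 4 h. The translational repressors Tia1 (−1.56) and Tial1 (−1.50) were lower at 2 h, and Tial1 (−1.25) was lower at 4 h. From 2 h to 4 h, Fubp1 (1.303), Zc3h12d (1.17) and Pum2 (1.11) were higher. Zc3h12b, with 5, 0 and 0 reads, and Elavl4, with 0, 1 and 3, had too few reads for a fold.

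With the authors' factors, most of the decay machinery that carries out the breakdown stayed under 2-fold. Of its 44 genes, 3 were at least 2-fold higher and 5 lower at 2 h, against 20.5% and 24.7% of all genes kept. At 4 h, 3 were higher and 6 lower, against 22.2% and 23.6%. The median log2 ratios were −0.40 at 2 h and −0.00 at 4 h. Those higher included the decapping enzyme Dcp2 (1.97 at 2 h and 2.25 at 4 h), its activator Dcp1a (1.21 and 1.68), Lsm4 (1.009 at 2 h) and the 5′ exonuclease Xrn1 (1.93 at 4 h). Those lower included the deadenylase Cnot6l (−2.08 and −1.44), Dcp1b (−2.50 and −1.26), Tob1 (−1.87 and −1.35), Lsm5 (−1.10 at 2 h, from 82 and 11 reads) and Cnot10 (−1.25 at 4 h). From 2 h to 4 h, Cnot7 (1.38), Dcp1b (1.24), Exosc2 (1.12) and Cnot6 (1.09) were higher and Exosc6 (−1.15) lower. With reads scaled to library totals, 24 of the 44 genes were at least 2-fold lower at 2 h and 19 at 4 h. Of the 17854 genes kept, 7115 at 2 h and 7768 at 4 h were so under that scaling.

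**Figure D4:**
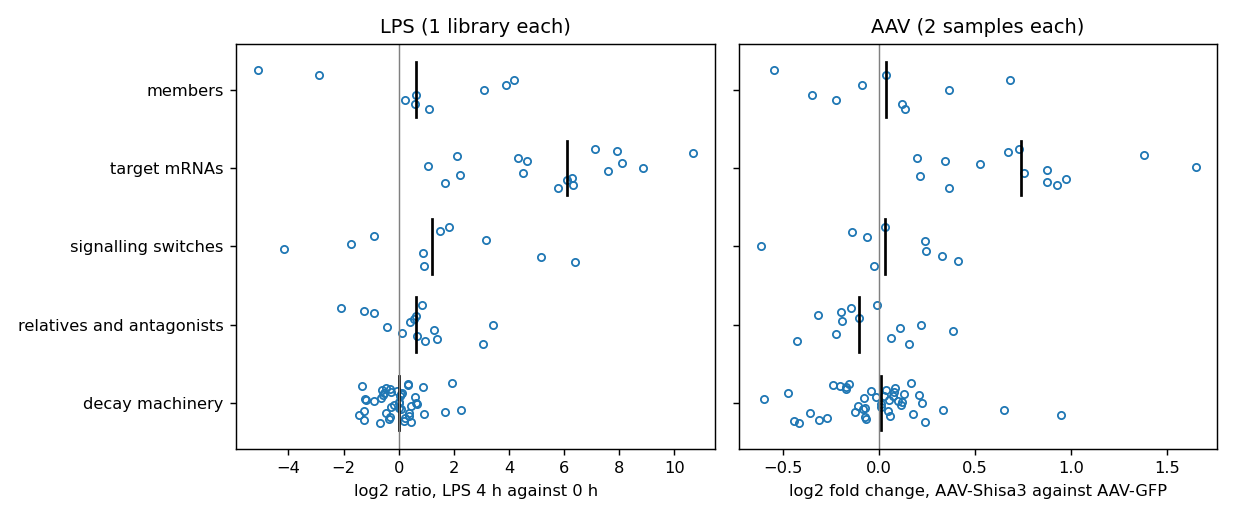
Log2 ratio of LPS 4 h against 0 h (left, 1 library each) and log2 fold change of AAV-Shisa3 against AAV-GFP (right, 2 samples each) for each gene of 5 lists; circles are genes and bars are list medians. The target mRNAs lie to the right in both panels, with a median of 6.11 over all 17 genes on the left, Il23a and Csf2 included, and 0.74 over the 14 genes tested on the right.

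In the AAV experiment, Zfp36 rose in AAV-Shisa3 BMDMs and was the only member past the threshold. The values have the form of TPM, a level per transcript length scaled to the same sum in each sample. They were tested with limma on log2(TPM + 1) over 11218 genes, with Benjamini-Hochberg adjustment at 0.05. Of the 9 members, 1 was higher and 0 lower, against 2.23% of genes tested called higher and 4.10% called lower. At an unadjusted p under 0.05, 2 members were higher and 1 lower, where 3137 of all genes tested (28.0%) were past it in either direction. An exact permutation test of 2 samples against 2 cannot give a p below 0.333.

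The transduced gene, Shisa3, was at 7.88 and 10.85 TPM in AAV-GFP and at 12.3 and 17.8 TPM in AAV-Shisa3. The higher pair was that of AAV-Shisa3, with a log2 fold change of 0.63 ± 0.22 (SE, n = 2 per group) that did not pass the limma test (adjusted p = 0.138). With 1 sample left out it ran from 0.38 to 0.87. Whether the deposited values count reads of the vector's transcript is not given in the sources used here, so the groups are used as labelled.

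Zfp36 was at 156 and 157 TPM in AAV-GFP and at 262 and 242 TPM in AAV-Shisa3. The groups did not overlap, and the gap between them was wider than the spread within either. The log2 fold change was 0.68 ± 0.075 (SE, n = 2 per group, 95% interval 0.50 to 0.87, limma adjusted p = 0.0178). The call was lost when any 1 of the samples was left out, with log2 fold changes of 0.63 to 0.74 and adjusted p of 0.0708 to 0.173 (limma). It was also lost without the trend (adjusted p = 0.0562) and with no filter (adjusted p = 0.105), and over all alternatives run the adjusted p was 0.00919 to 0.173.

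Zfp36l2 was at 26.6 and 28.4 TPM in AAV-GFP and at 15.8 and 21.8 TPM in AAV-Shisa3, both of the latter below both of the former. Its log2 fold change of −0.54 ± 0.16 (95% interval −0.94 to −0.15) did not pass (limma adjusted p = 0.0998), and it ran from −0.76 to −0.32 with 1 sample left out. Zfp36l1 was at 14.2 and 18.9 TPM in AAV-GFP and at 13.9 and 20.3 TPM in AAV-Shisa3, so the groups overlapped, with a log2 fold change of 0.04 ± 0.21 (−0.49 to 0.56). As shares of the family per length, Zfp36 was 79.2% and 76.9% in AAV-GFP and 89.8% and 85.2% in AAV-Shisa3. Zfp36l2 made up 13.5% and 13.9% in AAV-GFP and 5.42% and 7.66% in AAV-Shisa3. In both AAV groups, neither of which the labels describe as given LPS, Zfp36 was the most abundant of the 9 genes in TPM.

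Zc3h12a was at 91.0 and 95.9 TPM in AAV-GFP and at 113 and 128 TPM in AAV-Shisa3. The AAV-Shisa3 samples were both the higher, with a log2 fold change of 0.37 ± 0.090 (95% interval 0.14 to 0.59) that did not pass (limma adjusted p = 0.0713). It passed once samples were centred on their medians (limma adjusted p = 0.0402). Zc3h12c was at 13.7 and 16.55 TPM in AAV-GFP and at 13.5 and 14.7 TPM in AAV-Shisa3, so the groups overlapped (log2 fold change −0.09 ± 0.13, interval −0.41 to 0.23).

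Rc3h1 was at 8.96 and 12.7 TPM in AAV-GFP and at 7.78 and 8.61 TPM in AAV-Shisa3 (log2 fold change −0.35 ± 0.18, interval −0.79 to 0.10). Elavl1 was at 39.9 and 43.55 TPM and at 45.2 and 46.4 TPM (0.13 ± 0.088, interval −0.08 to 0.35). Hnrnpd was at 112 and 125.5 TPM and at 130.05 and 128 TPM (0.12 ± 0.085, interval −0.09 to 0.33). Khsrp was at 39.5 and 45.6 TPM and at 34.9 and 37.6 TPM (−0.22 ± 0.10, interval −0.48 to 0.04). None of these 4 genes passed (limma adjusted p of 0.229 to 0.388), and their intervals leave room for changes of either sign. With 1 sample left out, the log2 fold change ran from −0.58 to −0.12 for Rc3h1, 0.07 to 0.19 for Elavl1, 0.04 to 0.20 for Hnrnpd and −0.32 to −0.12 for Khsrp.

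**Figure D5:**
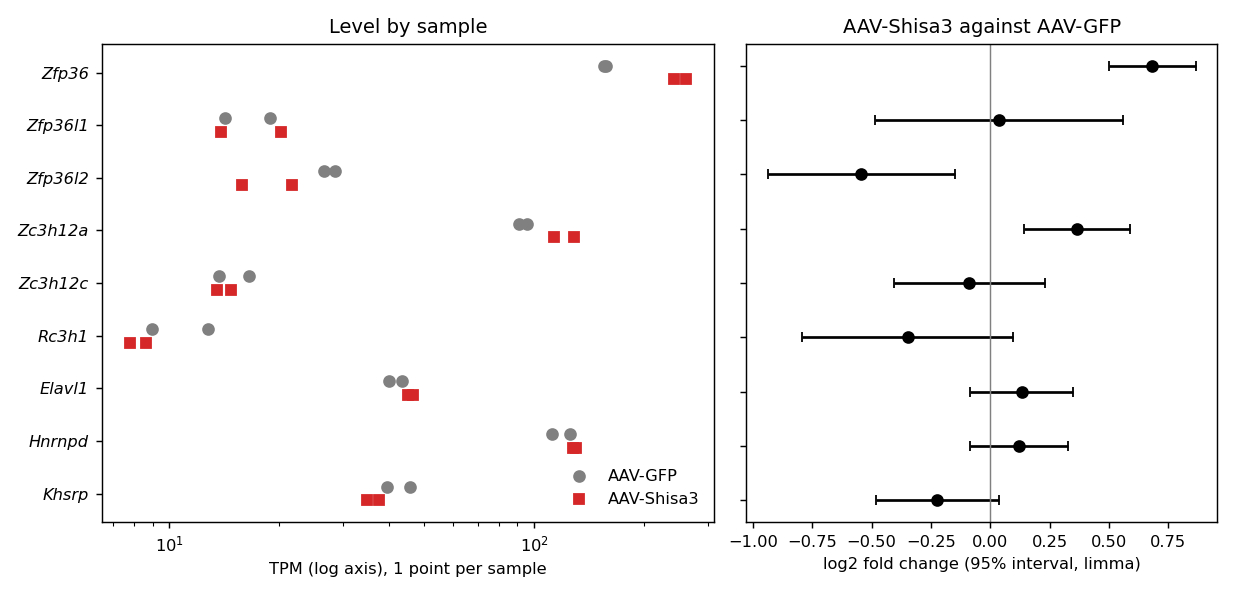
Left, TPM (log axis) of the 9 genes in each AAV-GFP (grey circles, n = 2) and AAV-Shisa3 (red squares, n = 2) sample; right, log2 fold change of AAV-Shisa3 against AAV-GFP with 95% intervals from limma. Zfp36 is at 156 and 157 TPM in AAV-GFP against 262 and 242 TPM in AAV-Shisa3, and the intervals of Zfp36 and Zc3h12a lie above 0 and that of Zfp36l2 below 0.

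Counted by samples, 4 of the 9 members had the AAV-Shisa3 pair wholly above the AAV-GFP pair (Zfp36, Zc3h12a, Elavl1 and Hnrnpd), against 18.2% of genes tested. For 3 members it was wholly below (Zfp36l2, Rc3h1 and Khsrp), against 41.2%. The median log2 fold change of the members was 0.04, beside −0.10 for all genes tested, which moved to 0.01 after median centring. Over all genes, 250 were called higher and 460 lower, against 410 and 230 when centred. Centred, 2 members were called higher (Zfp36 and Zc3h12a). Summed neutrophil markers were 593 and 565 TPM in AAV-GFP and 1090 and 681 TPM in AAV-Shisa3 for all 8 markers, and their part in these differences was not tested. For 7 of the 8 the AAV-Shisa3 pair was wholly above the AAV-GFP pair, as for Ngp (47.9 and 51.6 TPM, then 124 and 83.2 TPM) and Camp (13.6 and 13.9 TPM, then 40.2 and 24.7 TPM). The exception was Ly6g, at most 0.29 TPM in any sample.

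Several cytokine and receptor mRNAs among the targets also rose in AAV-Shisa3. Of 14 target mRNAs tested, 5 were called higher and 0 lower, against 2.23% and 4.10% of all genes tested. Their median log2 fold change was 0.74. At an unadjusted p under 0.05 these counts were 11 and 0, against the 28.0% of all genes given above for either direction. The AAV-Shisa3 pair lay wholly above the AAV-GFP pair for 13 of the 14, against 18.2% of all genes tested. As stated for LPS, the list was chosen with earlier results of these data known. Il1b was at 76.3 and 130.2 TPM in AAV-GFP and at 255 and 388 TPM in AAV-Shisa3 (log2 fold change 1.65, limma adjusted p = 0.0361). Plaur, the urokinase receptor, was at 84.2 and 89.2 TPM and at 223 and 229.8 TPM (1.38, adjusted p = 0.00962). The chemokine Ccl3 had a log2 fold change of 0.92 (adjusted p = 0.0129), Il10 one of 0.75 (adjusted p = 0.0231) and Tnf one of 0.73 (adjusted p = 0.0179). No target mRNA kept its call in each fit that left out 1 sample, where 0 or 1 of them was called.

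Of 43 decay machinery genes tested, 1 was higher and 1 lower, against 2.23% and 4.10% of all genes tested. An unadjusted p under 0.05 was reached by 3 that were higher and 6 that were lower. Of all genes tested, 28.0% reached it in either direction. Dcp2 was at 23.6 and 24.2 TPM in AAV-GFP and at 42.7 and 34.1 TPM in AAV-Shisa3 (log2 fold change 0.65, limma adjusted p = 0.0433), and the exosome gene Exosc7 fell by 0.60 on the log2 scale (adjusted p = 0.0435). Of 9 signalling switches tested, an unadjusted p under 0.05 was reached by 3 that were higher and 1 that was lower, beside the same 28.0%. After adjustment, Dusp1 rose (0.41, adjusted p = 0.0473) and Mapk14 fell by 0.62 (adjusted p = 0.0233), the latter from 64.1 and 62.5 TPM to 39.5 and 42.4 TPM. Of 13 relatives and antagonists tested, Hnrnpab rose (0.39, adjusted p = 0.0415) and 0 were lower, against 1 and 1 at an unadjusted p under 0.05. With any 1 sample left out, none of these 5 genes was called.

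Set side by side, the log2 values of LPS 4 h against 0 h and of AAV-Shisa3 against AAV-GFP were 4.18 and 0.68 for Zfp36, −5.10 and −0.54 for Zfp36l2, 3.09 and 0.37 for Zc3h12a, −2.89 and 0.04 for Zfp36l1, 3.90 and −0.09 for Zc3h12c, 0.62 and −0.35 for Rc3h1, 1.11 and 0.13 for Elavl1, 0.60 and 0.12 for Hnrnpd and 0.23 and −0.22 for Khsrp. The experiments differ in treatment, time, unit and normalisation, and no test was made between them. Exon bases are shared with a gene on the opposite strand for Zfp36l1 (Gm26669), Zfp36l2 (AC132455.1), Zc3h12c (Mir6244), Elavl1 (Ccl25), Hnrnpd (Gm17092) and Khsrp (Gm17949). Whether the counting used strand is not given in the sources used here, so reads of these partners cannot be told apart from those of the members.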

How the data were processed

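RNA from mouse BMDMs was sequenced in 3 LPS libraries and 4 AAV samples. The study's notes name the build mm9; the aligner, counter and annotation are not given in the sources used here. For the LPS libraries the authors deposited a signal per gene, the reads scaled by a factor of each library: all values (100%) were whole multiples of the smallest within 0.01 reads, which gave the reads back. A count test was not possible with 1 library per time. For the AAV samples the authors deposited values that sum to 999778 to 999818, read here as TPM from that sum, with unknown depth.

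LPS ratios were log2(value + 1) for genes averaging 1 or more, and 95% intervals were exact binomial. AAV values were tested with limma 3.58.1 (trended, R 4.3.3) on log2(TPM + 1), by group, for genes that averaged 1 TPM or more, after a test on simulated data. TMM factors came from edgeR 4.0.16 on the recovered reads. Other values used Python 3.11.15, pandas 2.3.3 and scipy 1.17.1. A pseudocount of 1 understates the change of low genes. Positions, lengths and 3′ UTRs came from GENCODE M21 (GRCm38), in which 48058 (99.2%) of the LPS gene IDs were found.

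Members and lists were chosen with earlier results of these data known. Named genes were all members, Shisa3, each list gene past the threshold in the AAV test, the 4 largest rises and falls of at least 2-fold per list and LPS contrast, and the 5 nearest patterns. The alternatives were other scalings, pseudocounts, filters, the untrended test, the replicate number as a block, leaving out each AAV sample and, added after seeing the data, transcript length without the 5′ UTR.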

Additional observations from a re-analysis of the deposited data

How the results depend on the processing

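The AAV calls depended on the fit, and the LPS ratios moved with the scaling. Called genes, higher and lower, numbered 250 and 460 over all genes, 1 and 0 over the members, 1 and 0 over relatives and antagonists, 1 and 1 over the decay machinery, 1 and 1 over the signalling switches and 5 and 0 over the target mRNAs. Without the trend, limma called 1 and 4 genes over all and 0 in each list, and with no filter it called 0 and 0 over all and 0 in each list, although 2959 and 3529 genes had an unadjusted p under 0.05. Centred on each sample's median, 410 and 230 genes were called, 2 members were higher and the decay machinery had 2 higher and 0 lower. With at least 1 TPM in every sample the decay machinery had 2 higher and 2 lower.

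With the replicate number as a block, 424 and 851 genes were called, members had 2 higher (Zfp36 and Zc3h12a, the latter at adjusted p = 0.0396) and 1 lower (Zfp36l2, adjusted p = 0.0463), relatives and antagonists 1 and 1, the decay machinery 2 and 2, and the target mRNAs 10 and 0. Shisa3 also passed (adjusted p = 0.0287). The samples share only a number: deviations of same-numbered samples had a correlation of 0.188 over 2 pairs, and no label ties them.

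With 1 sample left out, the lone sample of a group being assumed to vary like the other group, 0 to 27 genes were called higher over all and 0 to 7 lower. Members had 0, relatives and antagonists 0, the decay machinery 0, the signalling switches 0 and the target mRNAs 0 to 1 higher and 0 lower, with 2028 to 2402 genes at an unadjusted p under 0.05. The log2 fold change of Zfp36l1 ran from −0.22 (without AAV-Shisa3 replicate 2) to 0.29, and was −0.16 without AAV-GFP replicate 1. That of Zc3h12c turned to 0.039 without AAV-GFP replicate 2 and to 0.027 when centred. The cause of these changes was not tested.

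For LPS against 0 h, relatives and antagonists had 3 higher and 3 lower of 15 at 2 h and 4 and 2 at 4 h, and the decay machinery 3 and 5, and 3 and 6. Library totals gave 2438 genes at least 2-fold higher and 7115 lower at 2 h and 2334 and 7768 at 4 h. They gave 3 and 5 relatives and antagonists and 1 and 24 decay machinery genes at 2 h, and 3 and 4, and 2 and 19, at 4 h. Centred libraries gave 1 member lower at 2 h (Zfp36l2), 6 and 3 decay machinery genes at 2 h, and 6 and 1 with 8 and 1 relatives and antagonists at 4 h. A pseudocount of 5 gave 3 and 1 relatives and antagonists at 4 h, as did a mean of at least 5. Between 2 h and 4 h they gave 1830 and 1551, and 2110 and 1884, genes over all. The other 105 LPS counts and 26 AAV counts stayed within 1.5 times. Of the single LPS ratios of members, 41 left their counting interval under an alternative and 148 did not. The single library per time, and 77 to 199 reads of Zfp36l2, Hnrnpd and Zfp36l1 at 2 h, limit the LPS values.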
